A study of Mus musculus with 4 samples.

Results

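Collagen chain genes were taken as all genes whose symbol is Col, a number, a and a number. All 44 such genes of the RefSeq table had a probe on the array, out of 22911 genes named by a probe, and 67 probes covered them. The 4 groups were MC3T3-E1 cells given Miglustat at 50 µM, D-PDMP at 10 µM or D-PPMP at 1.0 µM, and Control cells given no inhibitor, for which the labels name no vehicle. Each group was 1 Agilent one-colour array. All 3 compounds inhibit glucosylceramide synthase, which makes glucosylceramide from ceramide and a glucose donor, and the study looked for molecules downstream of that enzyme. Cells were replated 4 days after the treatment and RNA was taken after another 24 h, and the labels do not say whether the compounds were present after replating. MC3T3-E1 is a clonal osteoblast precursor line from mouse calvaria, so every array describes 1 line. Miglustat is an iminosugar, whereas D-PDMP and D-PPMP are ceramide-like morpholino compounds that differ in the length of their fatty acyl chain. The 3 doses differ, so the inhibitors are set side by side and not compared with each other.

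Collagens are triple helices of 3 chains, built from repeats that begin with glycine. Fibrillar collagens are secreted as procollagens, trimmed and laid down as fibrils, and type I collagen is the bulk of the organic bone matrix that osteoblasts make. FACIT collagens sit on the surface of fibrils, type IV forms the sheet of basement membranes, type VIII forms hexagonal networks and type VI forms beaded microfilaments around cells. Type I collagen is mostly a trimer of Col1a1 and Col1a2 products.

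Of the 44 genes, 30 were well above background on all 4 arrays (68.2%, against 61.1% of all named genes), 4 on some arrays and 10 on none. No spot outside the controls was saturated. A level is the log2 signal minus the array's 75th percentile, so 0 is the 75th percentile of the array, and a difference is the inhibitor level minus the Control level of the same probe. Levels of different genes are not ranked, because probes differ in brightness for the same amount of RNA. Because a group is a single array, the spread between cultures is unknown, nothing was tested and precision is limited by how few arrays there are. The 3 comparisons share the Control array, and all 4 arrays lay on 1 slide, so the position on the slide and the group cannot be told apart. Within arrays, the 10 spots of the brightest Col1a1 probe (8 usable spots on Control) had an SD of 0.06 in log2 level with Miglustat, 0.05 with D-PDMP, 0.05 with D-PPMP and 0.06 in Control. The scanner software's own error of a log2 difference was larger, with a median of 0.20 over the members, and a difference is called beyond the scanner error where it exceeds that gene's value. Neither error covers the spread between cultures.

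No measured collagen chain was 2-fold apart from Control with any inhibitor. The share of all measured genes at least 2-fold apart was 0.388% on the Miglustat array, 0.325% on the D-PDMP array and 0.507% on the D-PPMP array. With Miglustat, 24 of 31 measured chains were above Control, against 44.6% of all genes, and 7 below, against 55.4%, and the median difference was 0.11, against -0.02 over all genes. With D-PDMP, 21 of 30 were below Control, against 50.4% of all genes, and 9 above, against 49.6%, and the median was -0.09, against -0.001 over all genes. With D-PPMP, 25 of 31 were below Control, against 51.5% of all genes, and 6 above, against 48.5%, and the median was -0.13, against -0.01 over all genes. After another background correction (normexp), 13 of the 31 chains were below Control with Miglustat, against 59.0% of all genes, and the Miglustat median was 0.0162, against -0.02 over all genes. Normexp as run here added an offset of 50 to every signal, which by itself shrinks log2 differences, most of all for dim genes. In bulk RNA, fewer cells of a kind and less RNA per cell cannot be told apart.

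**Figure D1:**
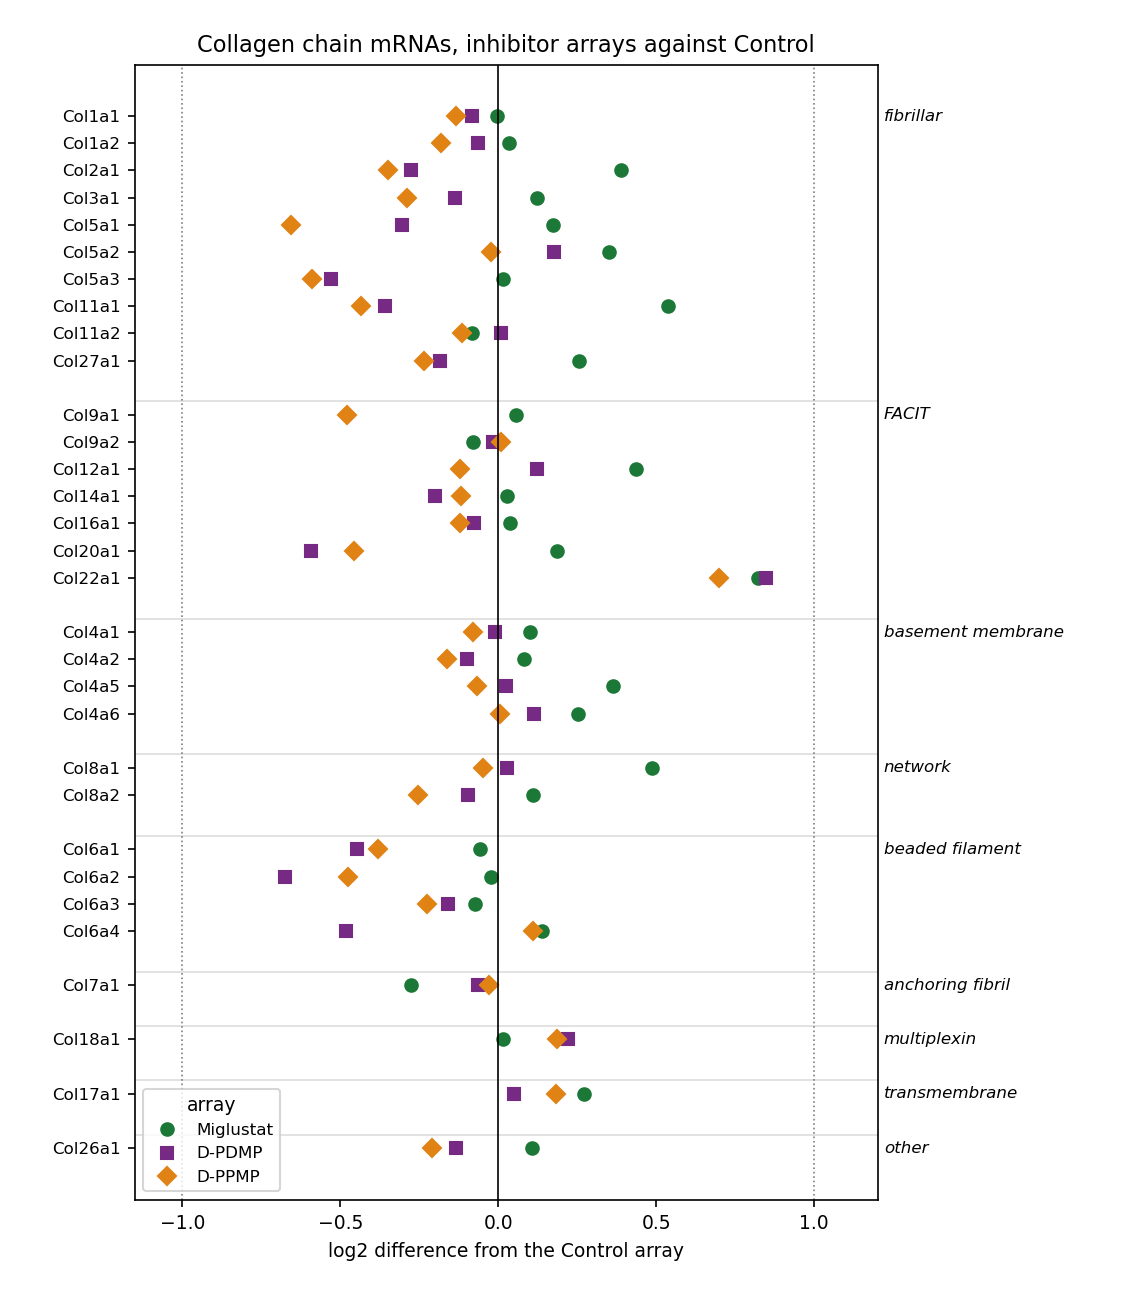
Log2 difference from the Control array (horizontal axis) for each measured collagen chain (rows, grouped by class), with 1 symbol per inhibitor array, a solid line for Control and dotted lines for 2-fold, which no symbol reaches. Miglustat symbols lie above Control for 24 of 31 genes, D-PDMP symbols below it for 21 of 30 and D-PPMP symbols below it for 25 of 31.

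Beyond the scanner error lay 11 of the 31 chains with Miglustat, against 19.5% of all genes, 10 of them above Control (32.3%, against 9.98% of all genes) and 1 below (3.23%, against 9.55%). With D-PDMP the count was 10 of 30, against 18.3% of all genes. Of these, 8 were below Control (26.7%, against 9.29%) and 2 above (6.67%, against 9.03%). With D-PPMP it was 13 of 31, against 22.6% of all genes, with 12 below (38.7%, against 10.4%) and 1 above (3.23%, against 12.2%). At 1.5-fold, 1 chain was above Control with Miglustat, against 1.57% of all genes, and none below, against 1.1%. With D-PDMP 1 chain was at least 1.5-fold above, against 1.34% of all genes, and 2 were at least 1.5-fold below, against 1.2%. With D-PPMP the counts were again 1 above, against 2.27% of all genes, and 2 below, against 1.18%. Of these 1.5-fold calls, that of Col6a2 with D-PDMP held under all 5 other scalings, and normexp ended each of the others. The limits stayed those of the main values. For dim genes a call lost with normexp can therefore follow from the added offset alone, so the loss decides nothing. Among the 5 scalings, the authors' deposited table nearly repeats the main values, and another percentile moves all genes of an array by the same amount. Held to the same scanner error, 7 of the 11 members beyond it with Miglustat stayed beyond it under all 5 other scalings, as did 7 of 10 with D-PDMP and 8 of 13 with D-PPMP. The share of all genes that stays beyond it was not counted, so these counts describe the members and do not set them apart.

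**Figure D2:**
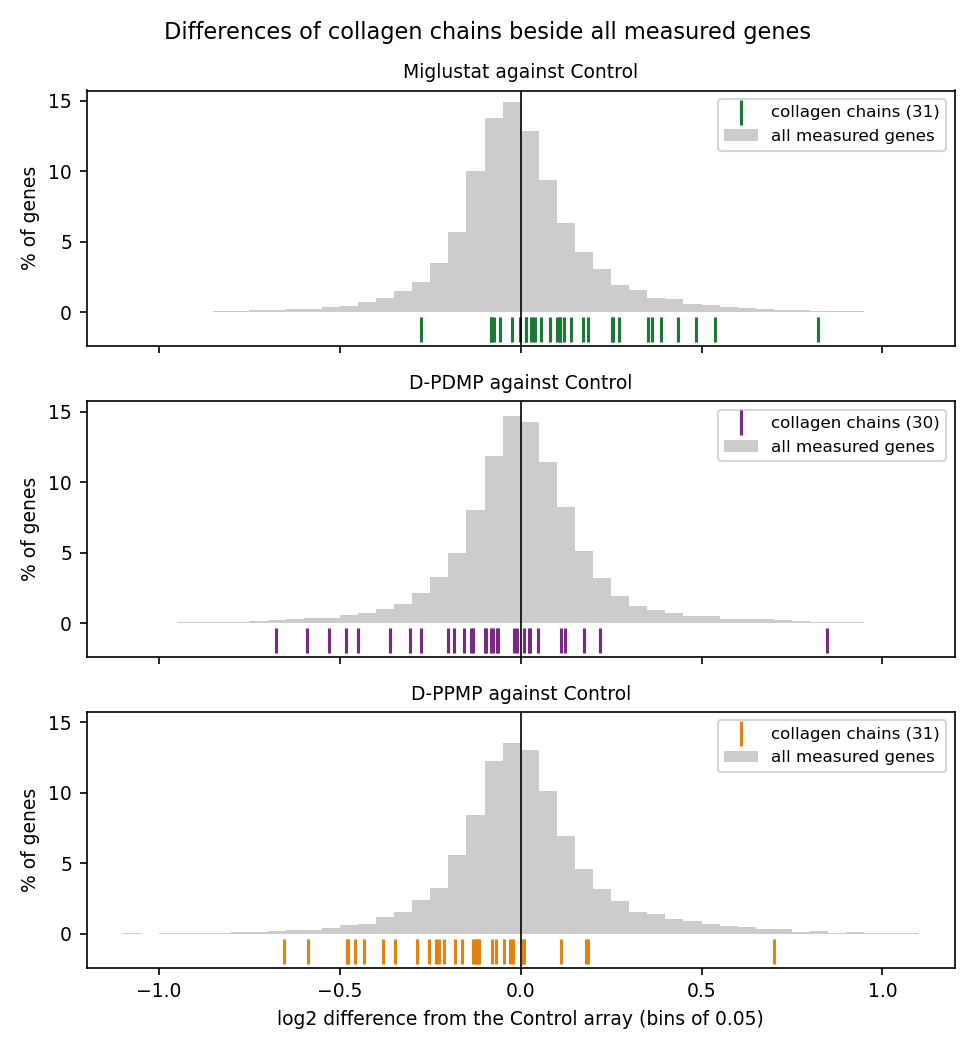
Distribution of the log2 difference from Control over all measured genes (grey bars, percent of genes per bin of 0.05) with the measured collagen chains as ticks below, in 1 panel per inhibitor. Apart from Col22a1 at the far right of each panel, the ticks run from -0.28 to 0.54 with Miglustat, and 21 of 30 ticks with D-PDMP and 25 of 31 with D-PPMP lie left of 0.

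The fibrillar class had 11 genes, of which 10 were measured. Its median difference was 0.15 on the Miglustat array, -0.16 on the D-PDMP array and -0.26 on the D-PPMP array. With Miglustat 8 of the 10 were above Control, against 44.6% of all genes. With D-PDMP 8 were below, against 50.4% of all genes, and with D-PPMP all 10 were below, against 51.5%. However, the Miglustat sign of Col1a1 and the D-PDMP signs of Col1a2 and Col11a2 turn under other scalings.

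Type I collagen is the main protein of bone. Col1a1 (probe A_52_P525107) had levels of 8.14 on the Miglustat array, 8.05 on the D-PDMP array and 8.01 on the D-PPMP array, against 8.14 in Control. Its differences were -0.003, with a sign that turns under other scalings, -0.08 and -0.13. The second Col1a1 probe gave -0.03, -0.13 and -0.19 in the same order. Col1a2, the partner chain of the type I trimer, was at 9.16 on the Miglustat array, 9.06 on the D-PDMP array and 8.94 on the D-PPMP array, against 9.12 in Control. Its differences were 0.03, -0.07, with a sign that turns under other scalings, and -0.18 in the same order. All differences of both chains were within the scanner error. Col3a1, which makes the homotrimer of type III collagen found in elastic tissues, had levels of 5.96, 5.70 and 5.55 with Miglustat, D-PDMP and D-PPMP, against 5.84 in Control. Its difference of -0.29 with D-PPMP was beyond the scanner error.

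Type V chains nucleate type I fibrils and set their width. Col5a1, whose chain is part of the common type V trimers, had levels of 7.02 on the Miglustat array, 6.55 on the D-PDMP array and 6.20 on the D-PPMP array, against 6.85 in Control. It was 1.57-fold below Control with D-PPMP, where 0.859% of all measured genes were that low or lower, and at -0.56, short of 1.5-fold, with normexp. Col5a3, the chain of a less common trimer, was at 2.71 on the Miglustat array, 2.16 on the D-PDMP array and 2.10 on the D-PPMP array, against 2.69 in Control. Its differences were 0.02 on the Miglustat array, -0.53 on the D-PDMP array and -0.59 on the D-PPMP array, and the D-PPMP value was past 1.5-fold, but short of it at -0.53 with normexp and also under 3 of the 4 further scalings. The dimmer Col5a3 probe was below Control too, at -0.75 with D-PDMP and -0.22 with D-PPMP, but at 0.26 with Miglustat. Col5a2, the partner of Col5a1 in the trimer, had levels of 3.47 on the Miglustat array, 3.30 on the D-PDMP array and 3.10 on the D-PPMP array, against 3.12 in Control.

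Type II and type XI chains are best known from cartilage, where they share fibrils. Col2a1 was well above background on all arrays of these osteoblastic cells, at 6.43 on the Miglustat array, 5.77 on the D-PDMP array and 5.70 on the D-PPMP array, against 6.05 in Control. Col11a1 had levels of 0.75 on the Miglustat array, -0.14 on the D-PDMP array and -0.22 on the D-PPMP array, against 0.22 in Control. Both genes were above Control with Miglustat, Col2a1 by 0.39 and Col11a1 by 0.54, and below it with the other 2 inhibitors, all 6 differences being beyond the scanner error. The Miglustat value of Col11a1 lay at percentile 98.1 of all measured genes. The other Col11a1 probe gave 0.46 on the Miglustat array, -0.16 on the D-PDMP array and -0.27 on the D-PPMP array. Of 8 cartilage cell markers, no array had Acan, Matn1, Hapln1 or Snorc well above background. The linear signal of the 8 was summed in units of the 75th percentile. The sum was 2.15 on the Miglustat array, 2.19 on the D-PDMP array and 2.08 on the D-PPMP array, against 2.17 in Control. Most of it came from Sox9, at levels of 0.94, 1.02 and 0.92 in the same order, against 0.97 in Control. Comp, the other marker well above background on all 4 arrays, was dim at -3.28 in Control. It differed from Control by 0.25, -0.42 and 0.09. Col11a2, another type XI chain, was dim, at -3.73, -3.64 and -3.76 with Miglustat, D-PDMP and D-PPMP, against -3.65 in Control, its 2 probes had opposite signs with D-PDMP and D-PPMP, and its D-PDMP sign also turns under other scalings. Col27a1, a fibrillar chain of developing cartilage, was at 0.37 on the Miglustat array, -0.07 on the D-PDMP array and -0.12 on the D-PPMP array, against 0.12 in Control, and its Miglustat difference of 0.25 was beyond the scanner error, but not with normexp at 0.19. Col24a1, the remaining fibrillar gene, was not well above background on any array.

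**Figure D3:**
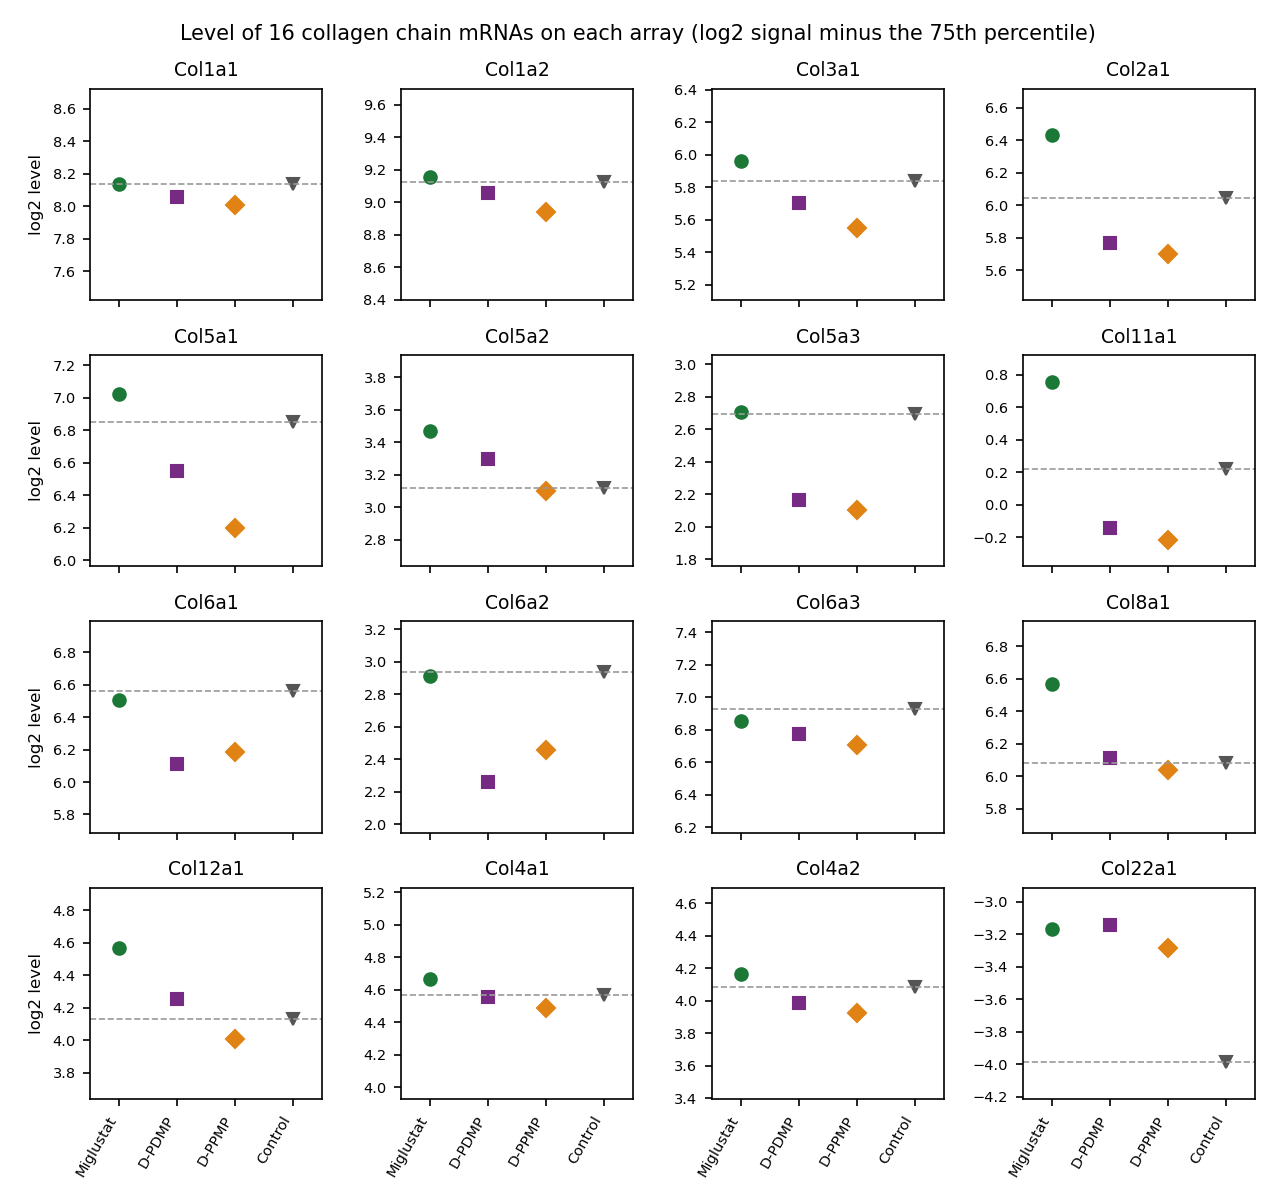
Level of 16 collagen chain mRNAs on the Miglustat, D-PDMP, D-PPMP and Control arrays (log2 signal minus the array's 75th percentile), each point being 1 array and the dashed line the Control level, with equal axis spans around different centres. Col5a1, Col5a3, Col6a1 and Col6a2 lie below the Control line with D-PDMP and D-PPMP, and Col8a1, Col11a1 and Col12a1 lie above it with Miglustat.

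Of the 6 genes for beaded filament chains of type VI collagen, 4 were measured, with medians of -0.04 on the Miglustat array, -0.47 on the D-PDMP array and -0.30 on the D-PPMP array, the first turning to 0.06 without a filter on dim genes. Col6a1, Col6a2 and Col6a3 make the chains of the classic type VI trimer. Col6a1 was at 6.51 on the Miglustat array, 6.11 on the D-PDMP array and 6.18 on the D-PPMP array, against 6.56 in Control. Col6a2 was at 2.91 on the Miglustat array, 2.26 on the D-PDMP array and 2.46 on the D-PPMP array, against 2.94 in Control. Col6a2 was therefore 1.60-fold below Control with D-PDMP, where 0.699% of all measured genes were that low or lower, and 1.39-fold below with D-PPMP. The Miglustat differences were -0.06 for Col6a1 and -0.02 for Col6a2, with signs that turn under other scalings. Col6a3, which encodes the long chain of the trimer, had levels of 6.86, 6.77 and 6.70 with Miglustat, D-PDMP and D-PPMP, against 6.93 in Control, and its D-PPMP difference of -0.23 was beyond the scanner error but within it at -0.19 with quantile and -0.18 with cyclic loess normalization. Its 2 probes lay 0.09 apart with D-PPMP and closer with the others. Col6a4 was dim at -3.52 on the Miglustat array, -4.14 on the D-PDMP array and -3.55 on the D-PPMP array, against -3.66 in Control, and the sign of its Miglustat and D-PPMP differences turns under other scalings. Its D-PDMP difference of -0.48 was beyond the scanner error, but not with normexp at -0.13. Neither Col6a5 nor Col6a6 was well above background on an array.

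Shown are the promoters of 5 fibrillar and type VI genes below Control beyond the scanner error with D-PDMP and D-PPMP under all scalings. The genes were picked after their values were seen. Col2a1 met the same rule but had no promoter window in the set used. Beside the 5 is the promoter of Col1a2, which was within the scanner error. Each is the 250 bases before the RefSeq start on build GRCm38.p6. Capitals mark matches to 3 short motifs, each searched on both strands, where overlapping matches run together. The first was the CCAAT box, searched by those letters. The GC box was searched as GGGCGG. The TATA box was searched as TATAAA. The windows are chr2:27886175-27886424 on the + strand for Col5a1, chr9:20815068-20815317 on the - strand for Col5a3, chr10:76726045-76726294 on the - strand for Col6a1, chr10:76623405-76623654 on the - strand for Col6a2 (1 of 2 starts), chr3:114030290-114030539 on the + strand for Col11a1 and chr6:4505368-4505617 on the + strand for Col1a2.
Col5a1: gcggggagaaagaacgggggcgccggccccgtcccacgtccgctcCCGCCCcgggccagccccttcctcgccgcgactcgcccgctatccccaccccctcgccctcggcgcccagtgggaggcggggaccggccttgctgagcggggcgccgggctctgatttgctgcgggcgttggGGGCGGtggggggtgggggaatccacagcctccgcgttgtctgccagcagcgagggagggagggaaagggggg
Col5a3: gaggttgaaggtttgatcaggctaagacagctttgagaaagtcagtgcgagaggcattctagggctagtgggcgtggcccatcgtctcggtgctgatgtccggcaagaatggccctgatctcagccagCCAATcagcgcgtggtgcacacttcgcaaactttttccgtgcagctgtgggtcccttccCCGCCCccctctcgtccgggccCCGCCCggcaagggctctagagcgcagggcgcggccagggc
Col6a1: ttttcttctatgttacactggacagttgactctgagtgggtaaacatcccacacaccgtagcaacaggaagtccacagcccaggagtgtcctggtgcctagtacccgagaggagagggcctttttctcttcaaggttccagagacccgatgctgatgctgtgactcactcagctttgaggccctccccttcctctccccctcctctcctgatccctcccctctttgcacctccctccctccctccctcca
Col6a2: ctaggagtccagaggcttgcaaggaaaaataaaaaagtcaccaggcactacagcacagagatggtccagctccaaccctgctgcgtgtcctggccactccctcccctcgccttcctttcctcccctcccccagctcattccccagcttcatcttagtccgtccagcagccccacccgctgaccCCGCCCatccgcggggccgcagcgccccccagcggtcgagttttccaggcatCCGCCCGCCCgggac
Col11a1: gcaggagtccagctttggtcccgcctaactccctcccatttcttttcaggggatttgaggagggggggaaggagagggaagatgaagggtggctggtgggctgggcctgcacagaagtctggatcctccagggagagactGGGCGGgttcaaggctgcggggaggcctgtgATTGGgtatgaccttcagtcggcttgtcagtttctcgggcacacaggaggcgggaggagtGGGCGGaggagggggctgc
Col1a2: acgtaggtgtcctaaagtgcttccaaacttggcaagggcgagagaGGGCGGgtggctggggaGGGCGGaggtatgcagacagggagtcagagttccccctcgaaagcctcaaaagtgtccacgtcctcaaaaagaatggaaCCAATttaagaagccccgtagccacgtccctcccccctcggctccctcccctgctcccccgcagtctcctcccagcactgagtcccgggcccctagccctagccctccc
The CCAAT box had a match in the windows of Col5a3, Col11a1 and Col1a2, 1 in each. The GC box had a match in all shown but that of Col6a1, and the TATA box in none. Of 32851 such windows of all genes, 33.9% held the CCAAT box, 32.7% the GC box and 12.4% the TATA box. Among the 38 windows of the 35 collagen chain genes in the table, 13 held the CCAAT box, 22 the GC box and 5 the TATA box. Their median GC content was 59.0%, against 52.4% over all windows. A match of letters is a description and not a site.

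All 4 measured basement membrane chains were above Control with Miglustat, against 44.6% of all genes. The 4 measured type IV genes had a median of 0.18 on the Miglustat array, 0.01 on the D-PDMP array, which turns to -0.02 with normexp, and -0.07 on the D-PPMP array. Col4a1 and Col4a2 encode the chains of the ubiquitous type IV trimer and lie head to head on chromosome 8, their 300-base windows around the start overlapping by 78 bases. Col4a1 was at 4.67 on the Miglustat array, 4.56 on the D-PDMP array and 4.49 on the D-PPMP array, against 4.57 in Control. Col4a2 was at 4.17, 3.99 and 3.93 with Miglustat, D-PDMP and D-PPMP, against 4.09 in Control. The differences of Col4a1 were 0.10, -0.01 and -0.08 and those of Col4a2 were 0.08, -0.10 and -0.16 in the same order, and none was beyond the scanner error.

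Col4a5 and Col4a6, a second head-to-head pair on chromosome X, encode chains of a trimer of epithelial and smooth muscle basement membranes. Col4a5 was at 2.14 on the Miglustat array, 1.80 on the D-PDMP array and 1.71 on the D-PPMP array, against 1.77 in Control, and the D-PDMP sign turns under other scalings. Col4a6 was at 1.37, 1.23 and 1.12 with Miglustat, D-PDMP and D-PPMP, against 1.11 in Control, and there the D-PPMP sign turns. The Miglustat differences, 0.36 for Col4a5 and 0.25 for Col4a6, were beyond the scanner error, though that of Col4a6 was within it at 0.18 with normexp, and the second Col4a5 probe gave 0.35. Col4a3 was well above background only with Miglustat, where it was at least 1.26-fold above Control, and Col4a4 on no array. A bound of this kind sets the bright array against a floor on the dim array. The floor is the higher of the lowest signal well above background there and the dim probe's own signal. The bound takes no account of the scanner error, which reached 0.38 in log2 for the dim Col9a1 with D-PPMP. Bounds close to 1 may therefore lie within that error.

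Of the network-forming genes, Col8a1 and Col8a2 were measured. Col8a1 was at 6.57 on the Miglustat array, 6.11 on the D-PDMP array and 6.04 on the D-PPMP array, against 6.08 in Control, so the Miglustat array stood 1.40-fold above Control, with differences of 0.03 with D-PDMP and -0.05 with D-PPMP. Col8a2 was at 4.54 on the Miglustat array, 4.34 on the D-PDMP array and 4.18 on the D-PPMP array, against 4.43 in Control. Its D-PPMP difference of -0.25 was beyond the scanner error, but not with normexp at -0.13. Col10a1, the marker of hypertrophic cartilage, was not well above background on any array.

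FACIT genes had medians of 0.06 with Miglustat over 7 measured genes, -0.05 with D-PDMP over 6 and -0.12 with D-PPMP over 7, and the Miglustat sign turns to -0.01 with normexp, the D-PDMP sign to 0.02 over genes with a mean level above 0. Col12a1, which encodes a fibril-associated chain of dense tissues and bone, was at 4.57 on the Miglustat array, 4.26 on the D-PDMP array and 4.01 on the D-PPMP array, against 4.13 in Control. Its Miglustat difference was 0.43, and 0.47 on the other probe. With D-PDMP the 2 Col12a1 probes had opposite signs, at 0.12 and -0.08. With D-PPMP both probes were below Control, at -0.12 on the brightest and -0.46 on the other. Col16a1 was at 4.72, 4.60 and 4.56 with Miglustat, D-PDMP and D-PPMP, against 4.68 in Control, and Col14a1 at -0.01, -0.24 and -0.16, against -0.04. None of these Col16a1 and Col14a1 differences was beyond the scanner error, the Col14a1 sign with Miglustat turns under other scalings, and the 2 Col16a1 probes had opposite signs with D-PPMP.

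Col22a1, a chain of tissue junctions, had the highest difference of the members in all 3 comparisons, but with normexp only with D-PPMP. Its levels were -3.16 on the Miglustat array, -3.14 on the D-PDMP array and -3.29 on the D-PPMP array, against -3.99 in Control. It was 1.77-fold, 1.80-fold and 1.62-fold above Control in that order, at percentiles 99.6, 99.7 and 98.7 of all measured genes. All 3 differences share the 1 Control value. The signals were dim, between 19.3 and 21.5 on the inhibitor arrays and 11.5 in Control, and the other Col22a1 probe was not well above background on any array. With normexp the differences were 0.14, 0.12 and 0.16 in the same order, within the scanner error, while Col12a1 was at 0.51 with Miglustat and Col18a1 at 0.23 with D-PDMP. The offset of 50 that normexp adds exceeds all 4 Col22a1 signals, so normexp cannot decide whether these differences hold.

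Other FACIT genes were dim as well. Col20a1 was at -3.87 on the Miglustat array, -4.65 on the D-PDMP array and -4.51 on the D-PPMP array, against -4.06 in Control. It was 1.51-fold below Control with D-PDMP and 1.37-fold below with D-PPMP, while its Miglustat sign turns under other scalings. With normexp its differences were -0.15 with D-PDMP and -0.14 with D-PPMP, short of 1.5-fold and within the scanner error, which the added offset leaves undecided for so dim a gene. Col9a1 was not well above background with D-PDMP, where it was at least 1.69-fold below Control. Its level was -4.53 on the Miglustat array and -5.07 on the D-PPMP array, against -4.59 in Control, and its Miglustat sign turns under other scalings. The D-PPMP difference of -0.48 was beyond the scanner error, but not with normexp at -0.12. Col9a2, its partner chain in type IX collagen, was at -2.35, -2.28 and -2.26 with Miglustat, D-PDMP and D-PPMP, against -2.26 in Control, and its D-PPMP sign turns under other scalings. Col19a1 was well above background only with Miglustat, at least 1.17-fold above Control, and Col9a3 on no array.

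The remaining classes had 1 measured gene each, with the single Col7a1 as the anchoring fibril class. Col7a1, whose collagen anchors epithelia to the tissue below, was at 2.77 on the Miglustat array, 2.99 on the D-PDMP array and 3.02 on the D-PPMP array, against 3.05 in Control. At -0.28 it was the 1 member below Control beyond the scanner error with Miglustat, while its D-PPMP sign turns under other scalings. Col18a1, the source of the fragment endostatin, was at 1.36 on the Miglustat array, 1.56 on the D-PDMP array and 1.53 on the D-PPMP array, against 1.35 in Control. Its D-PDMP difference of 0.22 was beyond the scanner error, whereas the Miglustat sign turns under other scalings. The transmembrane chain gene Col17a1 was dim, at -3.40, -3.63 and -3.49 with Miglustat, D-PDMP and D-PPMP, against -3.67 in Control. Its D-PDMP and D-PPMP signs turn under other scalings, and its 2 probes had opposite signs in both. Its Miglustat difference of 0.27 was beyond the scanner error, but not with normexp at 0.02. Col26a1 was at -4.09, -4.33 and -4.41 with Miglustat, D-PDMP and D-PPMP, against -4.20 in Control, and its Miglustat sign also turns. Col25a1 was well above background only with D-PPMP, at least 1.11-fold above Control. No array had Col13a1, Col15a1, Col23a1 or Col28a1 well above background.

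Probes of the same gene served as a check of the measurement. In 9 genes, 2 probes were well above background on all arrays. Their signs matched in 9 of 9 genes with Miglustat, 6 of 9 with D-PDMP and 6 of 9 with D-PPMP, and the median gap between probes was 0.07, 0.07 and 0.24 in that order. The widest gaps were 0.26 with Miglustat for Col17a1, 0.37 with D-PDMP for Col11a2 and 0.37 with D-PPMP for Col5a3. Probes of a gene share the RNA and are no replicates.

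**Figure D4:**
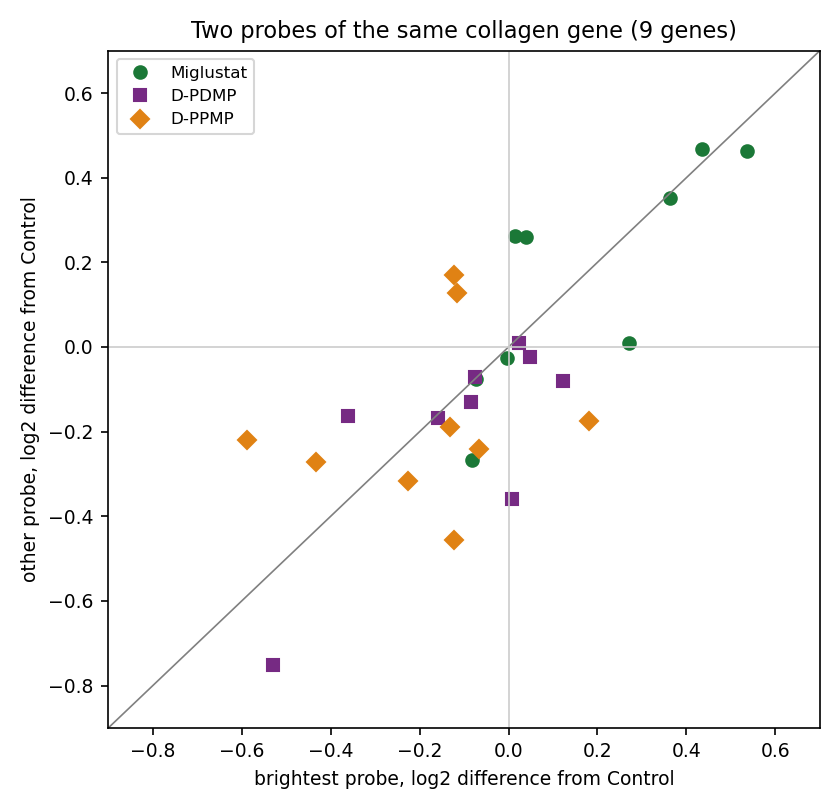
Log2 difference from Control on the other probe (vertical axis) against the brightest probe (horizontal axis) for the 9 collagen genes with 2 probes well above background on all arrays, 1 symbol per gene and inhibitor and a diagonal for equal values. Miglustat symbols share the sign of both probes in 9 of 9 genes, and D-PDMP and D-PPMP symbols in 6 of 9 each.

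Genes that act on collagen were described as 3 lists, and none of their measured members was 1.5-fold or 2-fold apart from Control. Of all genes on the Miglustat array, 1.57% were at least 1.5-fold above Control and 1.1% below. The D-PDMP array had 1.34% above and 1.2% below, and the D-PPMP array had 2.27% above and 1.18% below. At 2-fold on either side, the shares were 0.388%, 0.325% and 0.507% in the same order. With shares this small and lists this short, the absence does not set the lists apart. Values given for the listed genes are log2 differences from Control. Of 20 genes that modify and fold procollagen, 19 were measured. Below Control were 10 with Miglustat (52.6%, against 55.4% of all genes), 14 with D-PDMP (73.7%, against 50.4%) and 17 with D-PPMP (89.5%, against 51.5%). The list medians were -0.02, -0.09 and -0.14 in that order. Plod2, the lysyl hydroxylase of crosslink sites, was at 0.20 on the Miglustat array, -0.09 on the D-PDMP array and -0.48 on the D-PPMP array. P4ha2, a catalytic subunit of prolyl 4-hydroxylase, was at 0.09, -0.17 and -0.49 in the same order. Plod1, the lysyl hydroxylase of the helix, was at -0.23, -0.14 and -0.25. Of 12 genes of procollagen cleavage and crosslinking, 11 were measured. Those below Control numbered 7 with Miglustat (63.6%, against 55.4% of all genes), 9 under D-PDMP (81.8%, against 50.4%) and 9 under D-PPMP (81.8%, against 51.5%). Their medians were -0.08, -0.07 and -0.10. Lox, lysyl oxidase, was at 0.04 on the Miglustat array, -0.23 on the D-PDMP array and -0.56 on the D-PPMP array. Tll1, a protease of the same family as the C-propeptidase Bmp1, was at 0.56, -0.48 and -0.09, but dim, with a level of -3.55 in Control. Loxl3, another lysyl oxidase, was at -0.18, 0.08 and 0.24. Of 10 collagen receptor genes 7 were measured, with medians of 0.14 on the Miglustat array, -0.09 on the D-PDMP array and -0.12 on the D-PPMP array. Itga1, the alpha 1 integrin chain, was at 0.42, -0.56 and -0.49, Ddr1, a collagen-binding receptor kinase, at 0.40, -0.09 and -0.12, and Itga11, the alpha 11 integrin chain, at -0.03, -0.19 and -0.30.

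**Figure D5:**
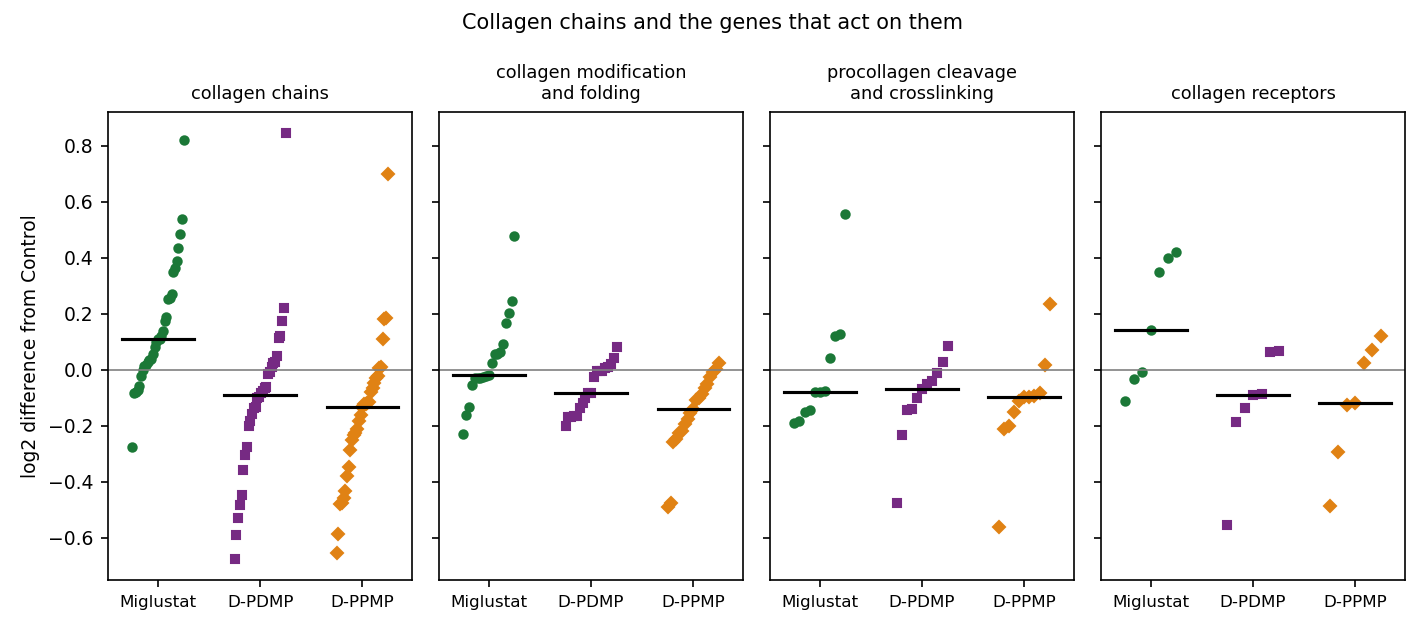
Log2 difference from Control for every measured member (points) of the collagen chains and of 3 lists of genes that act on collagen, by inhibitor, with the list median as a black bar. The medians of the modification list are -0.02, -0.09 and -0.14 with Miglustat, D-PDMP and D-PPMP, beside 0.11, -0.09 and -0.13 for the chains.

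Of 10 osteoblast markers, 7 were well above background on all arrays, whereas Alpl and Ibsp were not on any and Bglap was on 2. The summed linear signal of the 10, in units of the 75th percentile, was 469 on the Miglustat array, 465 on the D-PDMP array and 474 on the D-PPMP array, against 608 in Control. Most of it came from Sparc, the collagen-binding osteonectin, at levels of 8.76, 8.66 and 8.67 with Miglustat, D-PDMP and D-PPMP, against 9.12 in Control. The markers did not all lie on 1 side. Above Control with Miglustat were 4 of the 7 measured (median difference 0.06), against 44.6% of all genes. With D-PDMP it was 4 of 7 (0.02), against 49.6%, and with D-PPMP 2 of 7 (-0.11), against 48.5%. Sp7, an osteoblast transcription factor, differed from Control by 0.74 on the Miglustat array, 0.02 on the D-PDMP array and -0.44 on the D-PPMP array. Its levels were dim, at -2.61, -3.33 and -3.79 in that order, against -3.35 in Control. Spp1, osteopontin, differed by -0.66, 0.19 and 0.38 in the same order. Well above background on all arrays were 2 of 8 cartilage markers, 3 of 6 of adipocytes, 2 of 3 of tendon, 2 of 4 of macrophages, 1 of 4 of epithelium and 1 of 4 of endothelium. The adipocyte, macrophage, epithelial and endothelial sums were at most 2.31 on any array, and the tendon sum was 16.7, 16.8 and 16.6 with Miglustat, D-PDMP and D-PPMP, against 18.8 in Control. Their part in the collagen values was not tested.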

How the data were processed

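Total RNA of 4 cultures (1 array each) was labelled with Cy3, per the labels. Each array's scanner output gives an intensity per spot. Per the file headers it came from Agilent Feature Extraction 12.1.1.1, and the processed intensity is corrected for background and spatial trend. The authors also deposited a log2 table. It matches log2 of the processed intensity, with values under 1 set to 1, less the 75th percentile, up to an offset of at most 0.01 per array, within 0.02 for 100.0% of the 56302 probes with 1 spot. It is neither centred on genes nor turned in direction, with column medians of -4, -4, -3.89 and -4.1 in Miglustat, D-PDMP, D-PPMP and Control. Its software is not given in the sources used here.

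Control spots and spots flagged as outliers (67, 66, 85 and 70 in the same order) were dropped. Spots of a probe were averaged as log2 processed intensity, and each value was set against the 75th percentile of the 56602 probes on its array. Accessions without version were matched to RefSeq names (GRCm38.p6, names and promoter windows only, since the array design names another build), and 32993 probes (58.3%) matched. A gene takes its brightest probe over the 4 arrays. A gene is measured when well above background on both arrays compared. Share of probes well above background was 60.2%, 60.8%, 62.4% and 57.4% in the same order. Calls were made at 2-fold, with 1.5-fold beside it. No test was possible. Python 3.11.15, R 4.3.3 and limma 3.58.1 were used. Every chain well above background is named. Of the 3 other lists the 3 members furthest from Control on average are named, and markers of 7 cell types were listed. Members and lists were chosen with earlier results of these data known. Alternatives were normexp, quantile and cyclic loess normalization, another percentile, the authors' table, other filters on dim genes, the mean of probes and another fold.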

Additional observations from a re-analysis of the deposited data

How the results depend on the processing

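The medians over all measured chains kept their sign under every alternative run, for all 3 inhibitors. With normexp on the median signal with an offset of 50, an alternative chosen after seeing the data because the files hold no mean signal for the planned one, the Miglustat median was 0.0162 and 13 chains were below Control, against 59.0% of all genes. Without a filter on dim genes, over all 44 genes, 11 chains were below Control with Miglustat, against 58.7% of all genes, and 4 were at least 2-fold above it, against 4.19%. Without that filter 3 were at least 2-fold above with D-PDMP, against 5.46% of all genes, and 3 with D-PPMP, against 7.08%, and 1 was at least 2-fold below with D-PDMP, against 2.21%. At 1.5-fold, 1 chain was above Control with each inhibitor, against 1.57%, 1.34% and 2.27% of all genes with Miglustat, D-PDMP and D-PPMP. Below Control were 2 with D-PDMP, against 1.2%, and 2 with D-PPMP, against 1.18%. Only the 1.5-fold call of Col6a2 with D-PDMP was kept with normexp, whose offset shrinks the differences of dim genes. The other values for these medians and counts stayed within the spread of repeated spots or within 1.5 times. Over 5 other scalings, 22 of 31 members kept their sign with Miglustat, 26 of 30 with D-PDMP and 26 of 31 with D-PPMP. The share of all genes that keeps its sign was not counted, so these counts do not set the collagens apart. Among the 22 members with a mean level above 0, also chosen after seeing the data, 17 were above Control with Miglustat, against 41.3% of all such genes, 16 below with D-PDMP, against 49.3%, and 20 below with D-PPMP, against 57.0%. The network median with D-PDMP (-0.04) turned to 0.03 without the filter and also turned sign with normexp. Signal over background limits the values of the dim genes. The planned normexp on the mean signal was not run. No paired analysis was possible because each group has 1 array.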
